A study of Mus musculus with 29 samples.

Results

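Ifi204, Ifi205, Ifi207 and Ifi211 are 4 mouse genes of the interferon-inducible Ifi200 family, and they were followed by name through every cell type of a stroke study. They were chosen by name as members of this family, with no threshold on a measured value but with earlier results of these data known. Each of the 4 was present in every deposited table, among 19704 genes in the young brain tables, 27514 in the aged brain tables and 16623 in the blood tables. Single cells were profiled by Drop-seq, in which each cell is captured in a droplet with a barcoded bead, in 29 libraries from C57BL/6J mice, 18 of brain and 11 of blood. The mice had sham surgery or transient middle cerebral artery occlusion, which blocks the main artery of one hemisphere for a time. Young mice were 8 to 10 weeks old and all male, and their brain gave 4 libraries 2 days after sham surgery, 4 libraries 2 days after stroke and 4 libraries 14 days after stroke. Their blood gave 4, 4 and 3 libraries of the same groups. Aged mice were 17 to 20 months old, of either sex, and only brain was sampled, with 2 sham libraries at day 2, 3 stroke libraries at day 2 and 1 stroke library at day 14. Sham animals were sampled at day 2 only, so day 14 stroke was compared with day 2 sham. A brain library pooled 4 to 5 hemispheres after papain digestion with inhibitors of transcription, P2X7 receptors and NMDA receptors, and held cells sorted as CD45 high leukocytes, CD45 intermediate cells (microglia) and Ly6c high endothelial cells. A blood library pooled the leukocytes of 2 mice.

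Ifi200 proteins pair a pyrin domain, which assembles signalling complexes with other pyrin domains, with one or more HIN domains, which bind DNA. The family lies in one cluster on mouse chromosome 1 and is induced by interferons. Ifi204 encodes p204, which binds double-stranded DNA in the cytosol and nucleus and signals through the adaptor STING to type I interferon. Ifi205, Ifi207 and Ifi211 encode relatives of p204, and Aim2, another member of the wider family, instead assembles an inflammasome through the adaptor Pycard (ASC). In the brain, phagocytes meet DNA of dying cells after stroke, which makes microglia, monocyte-derived cells, dendritic cells and border-associated macrophages the cells of interest.

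In the GENCODE M21 annotation of GRCm38, all 4 genes lie on the minus strand of chromosome 1. Ifi207 (ENSMUSG00000073490) spans 1:173723427-173741747, Ifi204 (ENSMUSG00000073489) spans 1:173747293-173766943, Ifi211 (ENSMUSG00000026536) spans 1:173896345-173913046 and Ifi205 (ENSMUSG00000054203) spans 1:174011998-174031810. Ifi211 lies inside the span of its relative Mndal (1:173849126-173942491) but shares 0 exon bases with it. Promoters are shown because members, though not the same ones each time, rose after stroke in microglia, monocyte-derived cells and dendritic cells. They are the 300 bases from 250 before to 50 after the RefSeq gene start, on the minus strand, on GRCm38.p6, where 3 of the 4 members had an entry. For Ifi205 and Ifi207 this start differs from the one in the GENCODE spans above, and the Ifi207 window lies wholly outside its span. Distances to the start below are to the RefSeq start. These 3, Ifi205, Ifi207 and Ifi211, were called higher together only in monocyte-derived cells of young brain at day 14. Capitals mark each match, on either strand, to GAAA followed by 2 bases of any kind and a second GAAA, the core of the interferon-stimulated response element. The windows are 1:174031706-174032005 for Ifi205, 1:173741760-173742059 for Ifi207 and 1:173912997-173913296 for Ifi211.
Ifi205: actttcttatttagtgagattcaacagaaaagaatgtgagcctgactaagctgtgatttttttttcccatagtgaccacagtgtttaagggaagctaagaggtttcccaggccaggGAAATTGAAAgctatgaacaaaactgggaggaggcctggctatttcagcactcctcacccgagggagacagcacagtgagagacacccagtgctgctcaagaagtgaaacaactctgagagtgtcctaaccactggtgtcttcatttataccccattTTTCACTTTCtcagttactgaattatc
Ifi207: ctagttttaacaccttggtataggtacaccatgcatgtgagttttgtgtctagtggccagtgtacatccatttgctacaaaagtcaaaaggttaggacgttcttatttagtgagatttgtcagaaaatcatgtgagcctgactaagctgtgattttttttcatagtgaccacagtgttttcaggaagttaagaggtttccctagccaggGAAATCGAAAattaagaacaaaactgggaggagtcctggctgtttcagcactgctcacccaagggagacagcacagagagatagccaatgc
Ifi211: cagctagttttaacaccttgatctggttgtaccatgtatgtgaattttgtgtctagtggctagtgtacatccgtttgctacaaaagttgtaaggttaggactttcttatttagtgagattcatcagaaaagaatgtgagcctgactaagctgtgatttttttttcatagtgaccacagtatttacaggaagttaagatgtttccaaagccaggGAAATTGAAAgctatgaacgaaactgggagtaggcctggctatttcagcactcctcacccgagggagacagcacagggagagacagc

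Each of the 3 windows held this motif at least once. Ifi207 had GAAATCGAAA from 41 bases before the start and Ifi211 had GAAATTGAAA from 37 bases before it. Ifi205 had GAAATTGAAA from 134 bases before the start and a match on the other strand, read here as TTTCACTTTC, from 24 bases after it. Among 32851 RefSeq promoters of the same length, 1131 (3.44%) held the motif. Of 9 other Ifi200 family genes with a promoter entry, 6 held it (Ifi203, Ifi206, Ifi208, Ifi213, Ifi214 and Mndal), and Aim2, Ifi202b and Ifi209 did not. The gamma-activated site TTCNNNGAA, also searched on both strands and present in 8.30% of the promoters, matched 0 of the 3 windows. The longest identical run of Ifi205 and Ifi211 was 45 bases and did not include the motif. It lay at bases 148 to 192 of the Ifi205 window and bases 245 to 289 of the Ifi211 window. GAAATTGAAA, from base 117 in Ifi205 and base 214 in Ifi211, lay in a shorter identical stretch, gccaggGAAATTGAAAgctatgaac. In Ifi207 the bases gccagg also stood directly before GAAATCGAAA. The 3 windows thus share sequence around the motif and are not independent cases to set beside the 3.44% of all promoters. A match is a match of letters and no evidence of binding.

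The 29 libraries held 106977 annotated cells, 1143 to 6328 each, with 819438 to 5855050 counts in all and a median of 321 to 1363 counts per cell. Any pair of libraries shared at most 7 cell barcodes. Levels below are CPM, the counts of a gene summed over all cells of a deposited cell type in a library and scaled to a common total, for types with at least 20 cells there. Of the cell types with a marker list, all were led by their own list except aged border-associated macrophages and blood dendritic cells, where the monocyte list led. Blood eosinophils and basophils had no list of their own and were led by the neutrophil list. Barcodes ending in the undetermined base N occurred in all 8 young stroke brain libraries but in 1 of 4 young sham brain libraries (replicate 1), so this feature largely went with stroke. One day 2 stroke library, replicate 3, held only 58 microglia against at least 618 in every other young brain library. Those 58 cells went against their label: the 8 microglia markers summed to 820 CPM against 13800 to 15074 in the other day 2 stroke libraries, and the 9 monocyte markers to 4598 CPM against 545 to 1363. The day 2 values of the 4 genes in microglia are therefore given with and without it.

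Each of the 4 genes had its highest mean in a mononuclear phagocyte of the brain, in every young group, and the order of cell types differed between members. In young sham brain Ifi204 was highest in border-associated macrophages (337 ± 123 CPM, SD, n = 4) and monocyte-derived cells (200 ± 51.9 CPM), whose libraries overlapped, and granulocytes (63.6 CPM) stood above dendritic cells (49.5 CPM) and microglia (18.2 ± 1.27 CPM) in the mean. Ifi207 was highest in border-associated macrophages (677 ± 149 CPM), above monocyte-derived cells (307 ± 39.2 CPM) with no overlap. Ifi211 had 142 ± 26.0 CPM in border-associated macrophages, 123 ± 33.9 CPM in monocyte-derived cells and 108 ± 25.7 CPM in dendritic cells, and these neighbours overlapped. Ifi205 had its highest mean in dendritic cells in every young brain group, at 171 ± 149 CPM in sham, 430 ± 223 CPM at day 2 and 716 ± 314 CPM at day 14. In sham these libraries (0 to 332 CPM) overlapped those of monocyte-derived cells (0 to 53.9 CPM).

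After stroke the order changed for Ifi204 and Ifi211. Monocyte-derived cells led for Ifi204 at day 2 (616 ± 159 CPM, n = 4) and day 14 (817 ± 108 CPM), above border-associated macrophages (314 ± 85.2 and 491 ± 118 CPM) with no overlap at either time. Granulocytes had 333 CPM of Ifi204 at day 14, in the mean above microglia (286 CPM) and dendritic cells (275 CPM), and overlapped both. Monocyte-derived cells also had the highest mean Ifi211 at both times (288 ± 71.5 and 461 ± 26.0 CPM), overlapping dendritic cells (184 ± 55.5 and 355 ± 117 CPM). Ifi207 had its highest mean in border-associated macrophages, at 513 ± 43.2 CPM at day 2, where it overlapped monocyte-derived cells, and 800 ± 191 CPM at day 14, where it did not. Ifi205 in monocyte-derived cells (98.1 ± 29.9 and 211 ± 44.3 CPM) was below every dendritic cell library of the same group.

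Endothelial cells were sorted from the same suspension, and their group means lay between 0 and 7.57 CPM for the 4 genes in young brain, the highest being Ifi204 at day 14. Whether RNA released by other cells had been subtracted before deposit is not given in the sources used here, so these values set no level for such RNA. In blood, B, T and NK cells had group means of at most 3.99 CPM for any member, in blood monocytes Ifi204 stood at 278 ± 77.3 CPM in sham, and in neutrophils it stood at 92.3 ± 40.8 CPM.

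**Figure D1:**
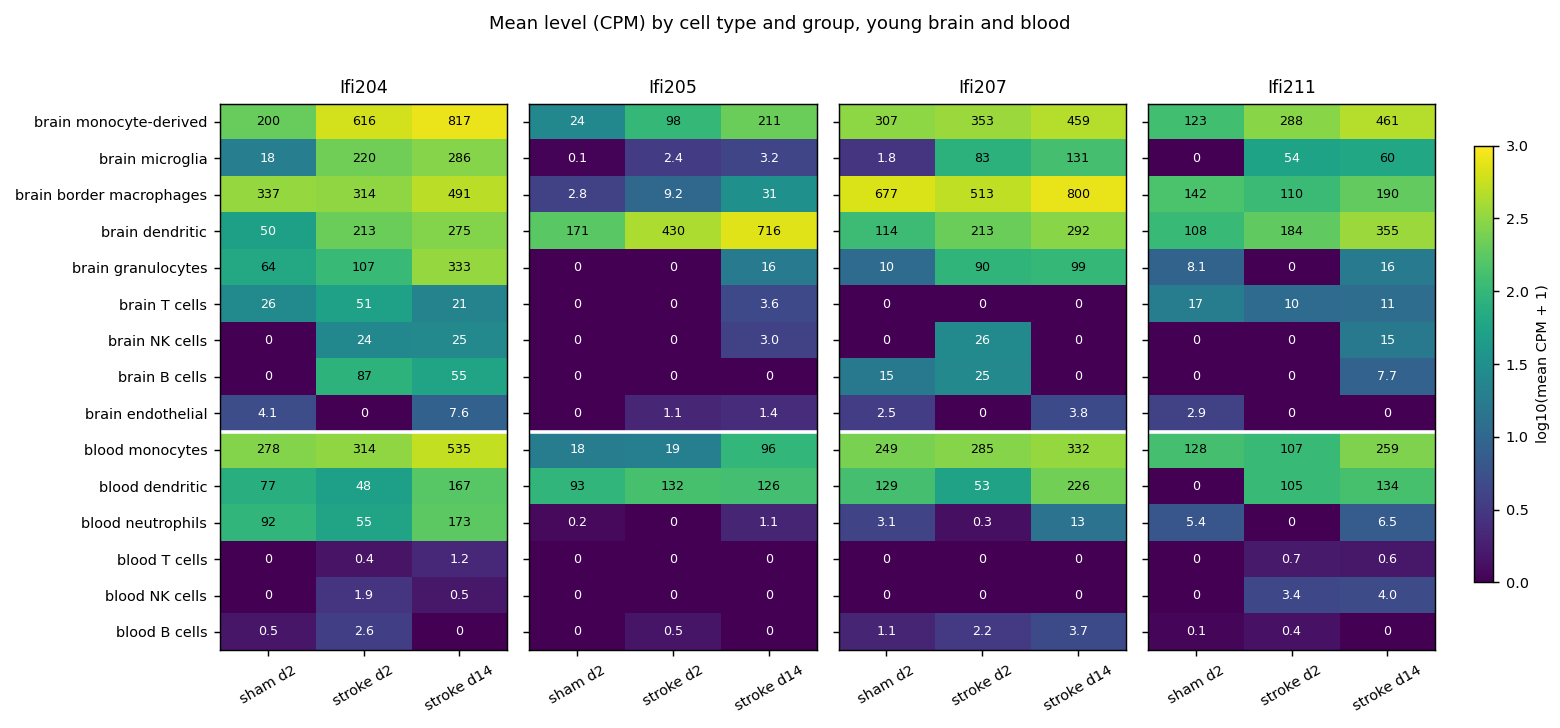
Mean level of Ifi204, Ifi205, Ifi207 and Ifi211 by deposited cell type (rows) and group (columns) in young brain and blood, as colour on a log10(mean CPM + 1) scale with the mean CPM written in each field. The highest field of each gene and group in brain is in monocyte-derived cells, border-associated macrophages or dendritic cells, granulocytes hold a higher mean of Ifi204 than dendritic cells in sham and at day 14, and blood monocytes lead blood for Ifi204, Ifi207 and Ifi211. Ifi205 has its highest mean in dendritic cells of both tissues, which in blood are 2 sham, 1 day 2 and 3 day 14 libraries and overlap monocytes at day 14.

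Microglia, the resident macrophages of the brain, carried the clearest change. Ifi204, Ifi207 and Ifi211 rose at day 2 and at day 14 after stroke, from a low or absent level in sham, and Ifi205 stayed too low to test. Each of the 3 was called higher by edgeR's quasi-likelihood test at an adjusted p under 0.05 (Benjamini-Hochberg over 10145 genes) at both times, against a background of 15.7% of genes called higher at day 2 and 10.6% at day 14. Normalisation moved that background: the median change of all genes was -0.05 (log2) at day 2 and -0.04 at day 14 with normalisation factors and -0.23 and -0.50 without them. The called genes at day 14 were then 3479 in place of 1546, of which 19.3% in place of 69.3% were higher, and at day 2 3400 in place of 3182, of which 36.9% in place of 49.9% were higher. Without the factors Ifi204 was higher by 3.34 (edgeR adjusted p = 1.22e-05) at day 2 and 3.99 (adjusted p = 3.6e-06) at day 14, against 12.4 and 6.61% of all genes called higher. Ifi207 and Ifi211 were at the filter's level in 0 of 4 sham libraries and entered the test through the stroke libraries, so they could only be called higher, and the count of 3 is no support for a rise of the group. For the same reason a lack of overlap with sham says nothing for Ifi207 and Ifi211.

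Ifi204 in young microglia was 16.5, 18.1, 18.8 and 19.4 CPM in the 4 sham libraries. It was 161, 194, 397 and 127 CPM at day 2 and 332, 253, 249 and 309 CPM at day 14. Every stroke library of Ifi204 lay above every sham library, which was so for 11.4% of all genes at day 2 and 5.8% at day 14, and the day 2 value of 397 CPM came from the library with 58 microglia. Ifi204 rose by 3.46 on the log2 scale (SE 0.24, edgeR adjusted p = 2.35e-06) at day 2 and by 4.44 (SE 0.24, adjusted p = 4.52e-07) at day 14. Without day 2 replicate 3 the day 2 rise was 3.32 (adjusted p = 1.14e-05). The mean at day 2 was 220 ± 121 CPM with all 4 libraries and 161 ± 33.9 CPM (n = 3) without replicate 3. Day 14 stood above day 2 by 0.98 (SE 0.22, edgeR adjusted p = 0.0168, background 3.46% higher). The libraries overlapped only through day 2 replicate 3, and without it the step was 1.11 (adjusted p = 0.00542). That call was lost without normalisation factors (0.64, adjusted p = 0.132), with only these groups in the fit (0.86, adjusted p = 0.0999) and without day 2 replicate 1 (0.78), day 2 replicate 4 (0.84) or day 14 replicate 1 (0.91).

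Ifi207 was 1.57, 4.69 and 1.06 CPM and near 0 in sham microglia. It was 97.4, 64.7, 86.7 and 83.0 CPM at day 2 and 150, 98.3, 129 and 146 CPM at day 14. All day 14 libraries were above all day 2 libraries, as for 3.79% of all genes, and the library with 58 microglia sat inside its group. In that library all 20 cells above 0 for Ifi207 held under 0.5 counts, so its place in the group says little. The log2 fold change was 5.39 (SE 0.48, edgeR adjusted p = 1.37e-05) at day 2 and 6.36 (SE 0.47, adjusted p = 2.09e-06) at day 14, and the step of 0.97 (SE 0.36) from day 2 to day 14 did not pass (adjusted p = 0.122). Without day 2 replicate 3 the day 2 mean was 81.7 ± 16.4 CPM (n = 3), the rise at day 2 was 5.42 (edgeR adjusted p = 4.6e-05) and the step to day 14 was 0.93 (adjusted p = 0.187).

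Ifi211 was at or near 0 in all 4 sham libraries of microglia. It was 32.5, 33.1, 125 and 26.9 CPM at day 2 and 75.7, 43.5, 67.9 and 52.9 CPM at day 14. With 3 counts taken as the floor of the whole sham group, day 2 stood at 55.3 times that floor and day 14 at 117 times. Without day 2 replicate 3 the first was 54.2 times. These depend on the floor and are no lower bound: with positive values rounded up, as described below, the ratios were 36.1 and 73.5. The edgeR adjusted p of 1.54e-05 and 2.97e-06 belong to a gene with no sham counts that only stroke libraries carried past the filter. The highest day 2 value came from the library with 58 microglia, where 6 of the 8 cells above 0 held under 0.5 counts. Without that library the day 2 mean was 30.8 ± 3.43 CPM (n = 3) rather than 54.4 ± 47.3 CPM. Day 14 exceeded day 2 by 1.11 (SE 0.32, log2) with adjusted p = 0.0657 on all libraries, and by 1.23 with adjusted p = 0.031 without day 2 replicate 3.

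Ifi205 did not pass the filter on low counts in microglia. Its sham libraries had 0.289 CPM and otherwise 0 or near 0, its day 2 libraries 4.33, 5.47, 0 and near 0 CPM, and its day 14 libraries 12.6 and 0.33 CPM and otherwise near 0. With the same floor of 3 counts over the sham group, day 2 stood at 3.29 times that floor and day 14 at 8.25 times, with no test. These too depend on the floor and are no lower bound. The groups overlapped, and most of the day 14 level came from 1 library. Without day 2 replicate 3, which was at 0, the day 2 mean was 3.27 ± 2.89 CPM (n = 3), and day 2 stood at 3.31 times the floor.

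**Figure D2:**
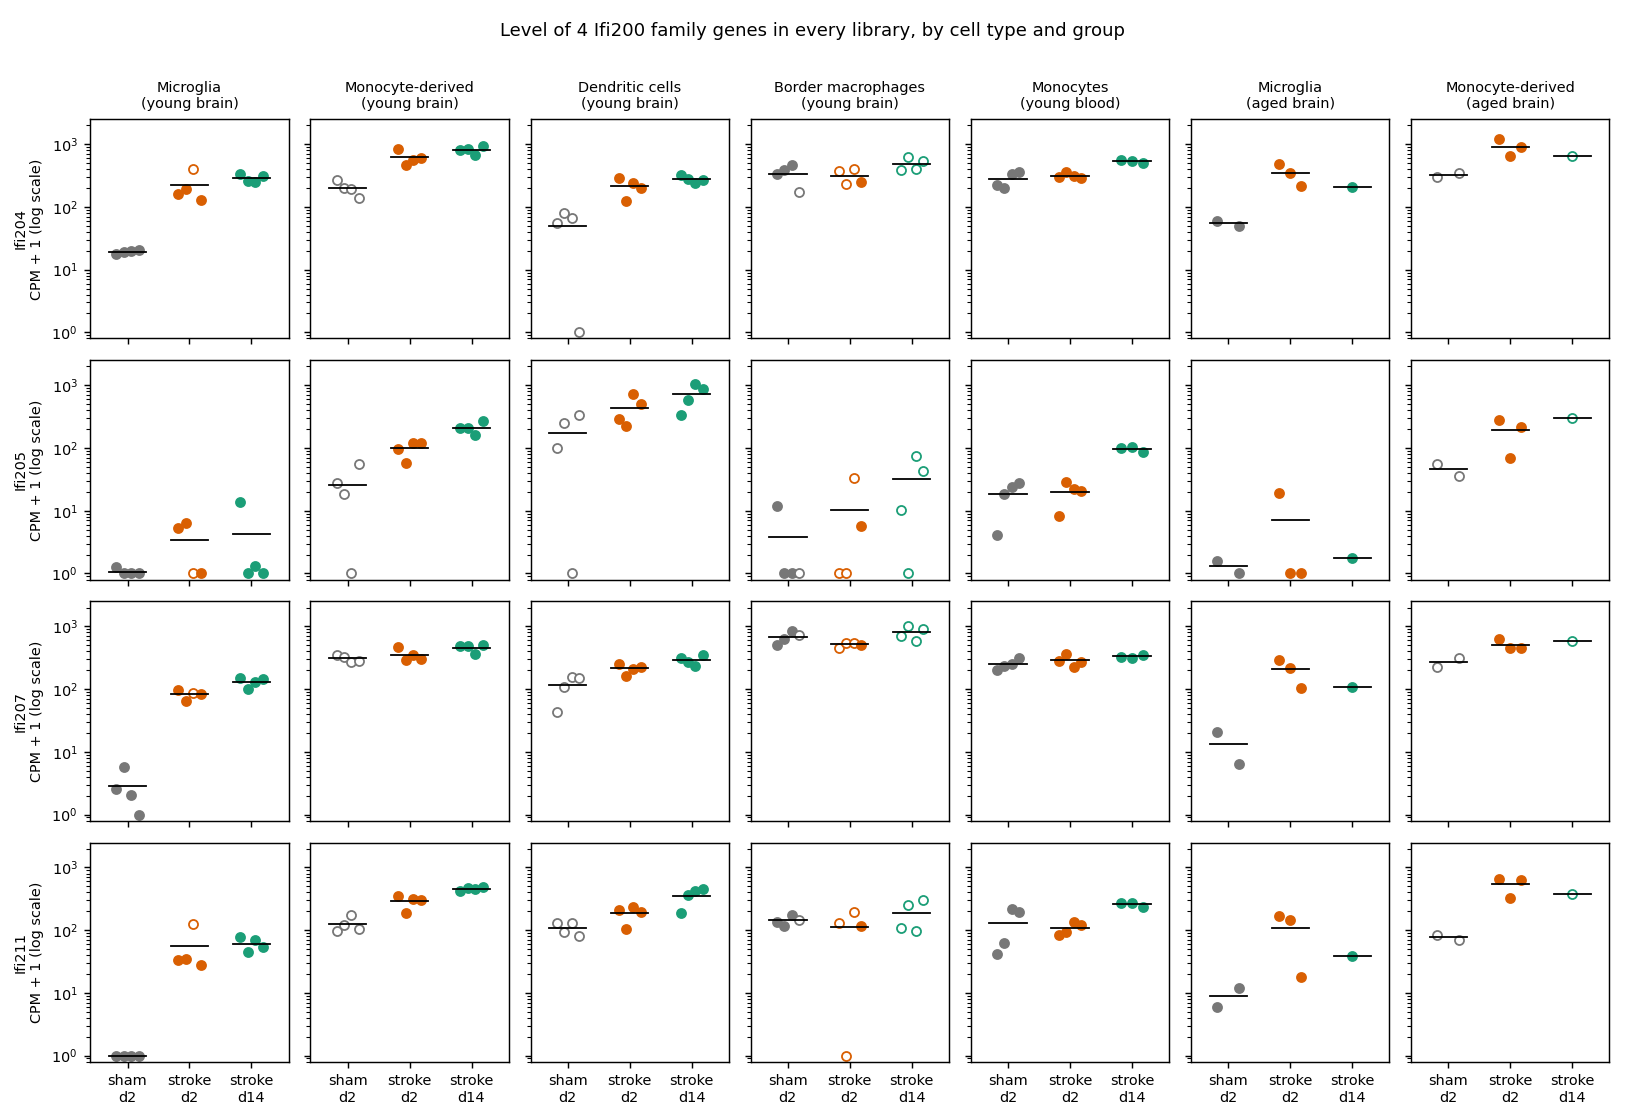
Level of each of the 4 genes (rows) in every library for microglia (Mg), monocyte-derived cells (MdC), dendritic cells (DC) and border-associated macrophages (BAM) of young brain, monocytes (Mo) of young blood, and microglia and monocyte-derived cells of aged brain. Points are libraries on a log axis of CPM + 1, lines are group means, and open symbols mark libraries with fewer than 100 cells of the type. In young microglia the stroke libraries of Ifi204 all lie above the sham libraries.

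The deposited counts are fractional, and many positive values are far under 1 count, so a share of cells with a value above 0 was read beside the share with a value that rounds to a count. Among 10874 young sham microglia, Ifi204 was above 0 in 108 cells and under 0.5 in 14 of them, and Ifi207 was above 0 in 45 cells and under 0.5 in 36 of them. All 6 sham cells with Ifi211 and both sham cells with Ifi205 were under 0.5. Among 2693 day 2 microglia the cells above 0 were 467 for Ifi204, 327 for Ifi207, 128 for Ifi211 and 21 for Ifi205, with 32, 37, 19 and 15 of them under 0.5. Without the 58 cells of replicate 3 they were 438, 307, 120 and 21 of 2635, with 11, 17, 13 and 15 under 0.5. Among 5170 day 14 microglia they were 1142, 670, 335 and 60, with 18, 23, 33 and 39 under 0.5. Most sham cells above 0 for Ifi207, Ifi211 and Ifi205 thus held a near-zero value, and few stroke cells did for Ifi207 and Ifi211. These numbers of cells are not adjusted for depth. The median counts per cell, over all cells of a library, were 321 to 638 in young sham brain, 571 to 1034 at day 2 and 402 to 1363 at day 14. The step that made the counts fractional is not given in the sources used here. With every positive value rounded up to 1 count or more, the day 14 ratio to sham was 13.9 (95% interval 11.6 to 16.7) for Ifi204, 19.3 (14.4 to 26.5) for Ifi207, 73.5 (33.5 to 201) for Ifi211 and 32.4 (8.65 to 273) for Ifi205. At day 2 the ratios were 7.16 (5.95 to 8.69), 12.8 (9.45 to 17.7), 36.1 (16.2 to 99.7) and 14.5 (3.58 to 127), and without replicate 3 they were 7.06 (5.85 to 8.56), 12.6 (9.29 to 17.5), 35.1 (15.8 to 97.2) and 14.9 (3.68 to 130.2). These intervals cover counting error only.

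Markers of monocytes moved in the same direction in the cells annotated as microglia. Their 9 markers summed to 235 to 404 CPM in sham libraries, 545 to 1363 CPM in day 2 libraries other than replicate 3, and 2156 to 3187 CPM at day 14. The 8 microglia markers summed to 19237 to 27778, 13800 to 15074 and 12672 to 16634 CPM in the same groups. The level in microglia was therefore set beside the level in monocyte-derived cells of the same library. At day 14 Ifi204 in microglia was 30.1 to 41.1% of that level, Ifi207 20.1 to 36.1% and Ifi211 9.16 to 17.8%. In the same libraries Ccr2, Ly6c2, Plac8, S100a4, Chil3 and F13a1, which mark monocytes, reached at most 1.06, 1.27, 1.30, 1.78, 0.502 and 1.57%, and Ms4a4c at most 4.10%. Lyz2 (6.52 to 14.9%) and Fn1 (22.7 to 65.1%) were higher. At day 2 the medians were 31.7% for Ifi204, 23.4% for Ifi207 and 13.5% for Ifi211, against 0.499 to 4.15% for 8 of the markers and 23.2% for Fn1 (10.5 to 34.7%), level with Ifi207 and above Ifi211. Without replicate 3 the day 2 medians were 21.1% for Ifi204 and 9.27% for Ifi211 and the values of Ifi207 were 21.1 to 27.2%, against at most 3.27% for those 8 markers and 31.4% for Fn1. In sham the medians were 9.34% for Ifi204 and 0.421% for Ifi207. For the 3 rising genes the share was larger than that of Ccr2, Ly6c2, Plac8, S100a4, Chil3, F13a1 and Ms4a4c in every day 14 library. Fn1 did not separate from them, and Lyz2 overlapped Ifi211.

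**Figure D3:**
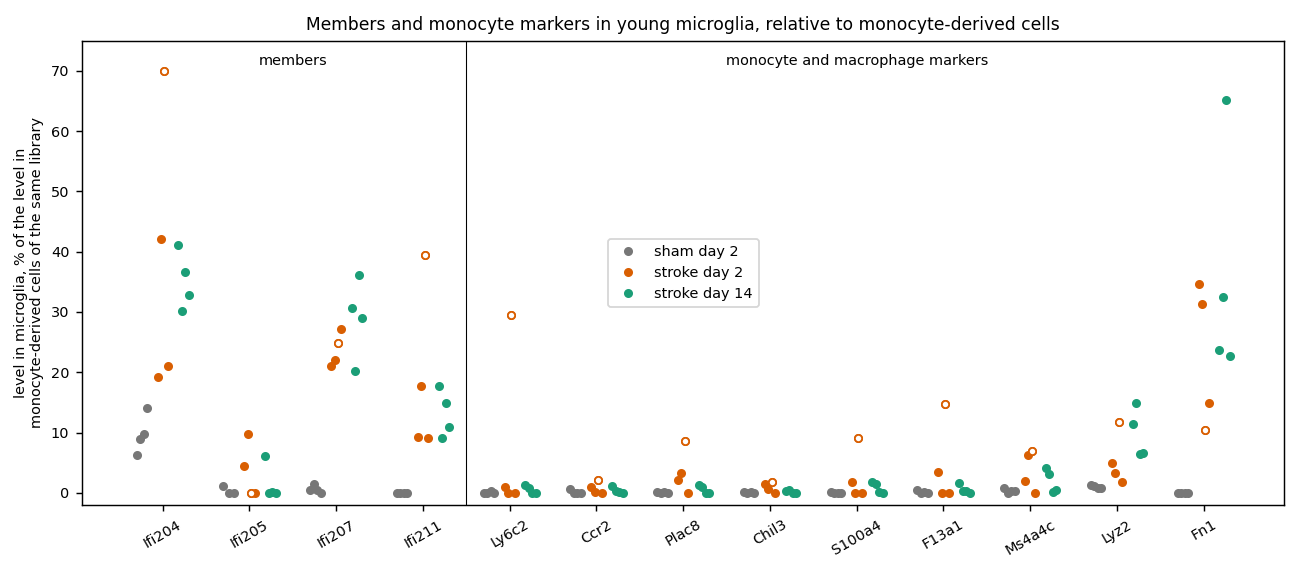
Level in microglia as a percentage of the level in monocyte-derived cells of the same young brain library, for the 4 genes and 9 monocyte markers, by group. Points are libraries, and the open point is day 2 replicate 3 with its 58 microglia. Ifi204, Ifi207 and Ifi211 stand above 7 of the 9 markers at day 14, Fn1 stands as high as they do, and Lyz2 overlaps Ifi211.

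Monocyte-derived cells, which enter the brain from blood, were few in sham brain (318 cells, 43 to 99 per library) and many after stroke (7225 cells at day 2 and 2898 at day 14). Ifi204, Ifi205 and Ifi211 rose at both times and Ifi207 only passed at day 14, on a level that was already high in sham. The mix of subtypes in these sums also changed, from 243 of 318 cells in the subtype MdC3 in sham to 1064 of 7225 at day 2 and 380 of 2898 at day 14. Of the 4 members, 3 were called higher at day 2 and 4 at day 14 by edgeR, against a background of 5.66% of 8080 genes called higher at day 2 and 4.21% at day 14. Normalisation shifted this comparison: over all genes the median change was 0.29 (log2) at day 2 and 0.28 at day 14 with normalisation factors, and -0.13 and -0.12 without them. The share of called genes that were higher went with it from 84.3 to 50.1% at day 2 and from 81.7 to 50.1% at day 14. Between day 2 and day 14, 0 of 4 members and 0.829% of all genes were called higher. In these cells all 4 same-numbered stroke libraries of day 2 and day 14 deviated together, and with the replicate number as a block 1 of 4 members, Ifi205, and 3.22% of all genes were called higher.

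Ifi204 in young monocyte-derived cells was 265, 203, 192 and 138 CPM in sham. It was 837, 461, 566 and 599 CPM at day 2 and 808, 840, 679 and 940 CPM at day 14. Sham did not overlap either stroke group, while the stroke groups overlapped each other. Over all genes of these cells, 8.48% had every day 2 library above sham, 7.65% had every day 14 library above sham and 4.86% had every day 14 library above day 2. The log2 fold change was 1.94 (SE 0.28, edgeR adjusted p = 0.00104) at day 2 and 2.32 (SE 0.29, adjusted p = 0.000277) at day 14.

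Ifi205 rested on 4.96 counts in the whole sham group, with 26.5, 17.3, 0 and 53.9 CPM by library. It was 96.8, 56.2, 120 and 119 CPM at day 2 and 208, 209, 159 and 267 CPM at day 14. No 2 of the 3 groups overlapped. The rise was 2.63 (log2, SE 0.54, edgeR adjusted p = 0.0095) at day 2 and 3.67 (SE 0.52, adjusted p = 0.000855) at day 14, and 1.04 (SE 0.31) between the stroke times, which did not pass without the block (adjusted p = 0.128) and passed with it (1.08, SE 0.26, edgeR adjusted p = 0.0093).

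Ifi211 was 97.8, 118, 172 and 104 CPM in sham monocyte-derived cells. It was 351, 186, 318 and 297 CPM at day 2 and 426, 475, 457 and 485 CPM at day 14. No 2 of the 3 groups overlapped, beside the shares of all genes given for Ifi204. Its rise was 1.69 (log2, SE 0.30, edgeR adjusted p = 0.00329) at day 2 and 2.33 (SE 0.30, adjusted p = 0.000347) at day 14. The step from day 2 to day 14 was 0.64 (SE 0.23, adjusted p = 0.246).

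Ifi207 was 353, 324, 266 and 284 CPM in sham, 462, 294, 350 and 306 CPM at day 2 and 488, 488, 359 and 503 CPM at day 14. Sham and day 2 overlapped, and all day 14 libraries were above sham. The log2 fold change was 0.61 (SE 0.25, edgeR adjusted p = 0.169) at day 2 and 0.96 (SE 0.25, adjusted p = 0.0355) at day 14. Leaving out any single sham or day 14 library ended the day 14 call (0.86 to 1.10, adjusted p 0.0521 to 0.137) and without normalisation factors (0.55, adjusted p = 0.233).

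With only cells of at least 800 counts, Ifi205 (2.70, edgeR adjusted p = 0.151) and Ifi211 (1.78, adjusted p = 0.0852) missed the threshold at day 2, as did Ifi205 (3.64, adjusted p = 0.0583) and Ifi207 (0.89, adjusted p = 0.256) at day 14. The barcode feature bears on all of these calls. With a term for libraries whose barcodes end in N, the day 2 fold changes of monocyte-derived cells were 1.58 for Ifi204 (edgeR adjusted p = 0.130), 2.27 for Ifi205 (adjusted p = 0.248) and 1.94 for Ifi211 (adjusted p = 0.0916). At day 14 Ifi204 (1.96, adjusted p = 0.0631), Ifi205 (3.31, adjusted p = 0.0819) and Ifi207 (0.71, adjusted p = 0.463) also missed the threshold, and Ifi211 kept its call. Within the libraries that have such barcodes, the single sham library had 265 CPM of Ifi204 in monocyte-derived cells against 461 to 837 CPM at day 2. In microglia the same sham library had 16.5 CPM against 127 to 397 CPM, and Ifi204 kept its microglial calls with the term (3.68, edgeR adjusted p = 0.00166, at day 2 and 4.66, adjusted p = 0.00154, at day 14).

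**Figure D4:**
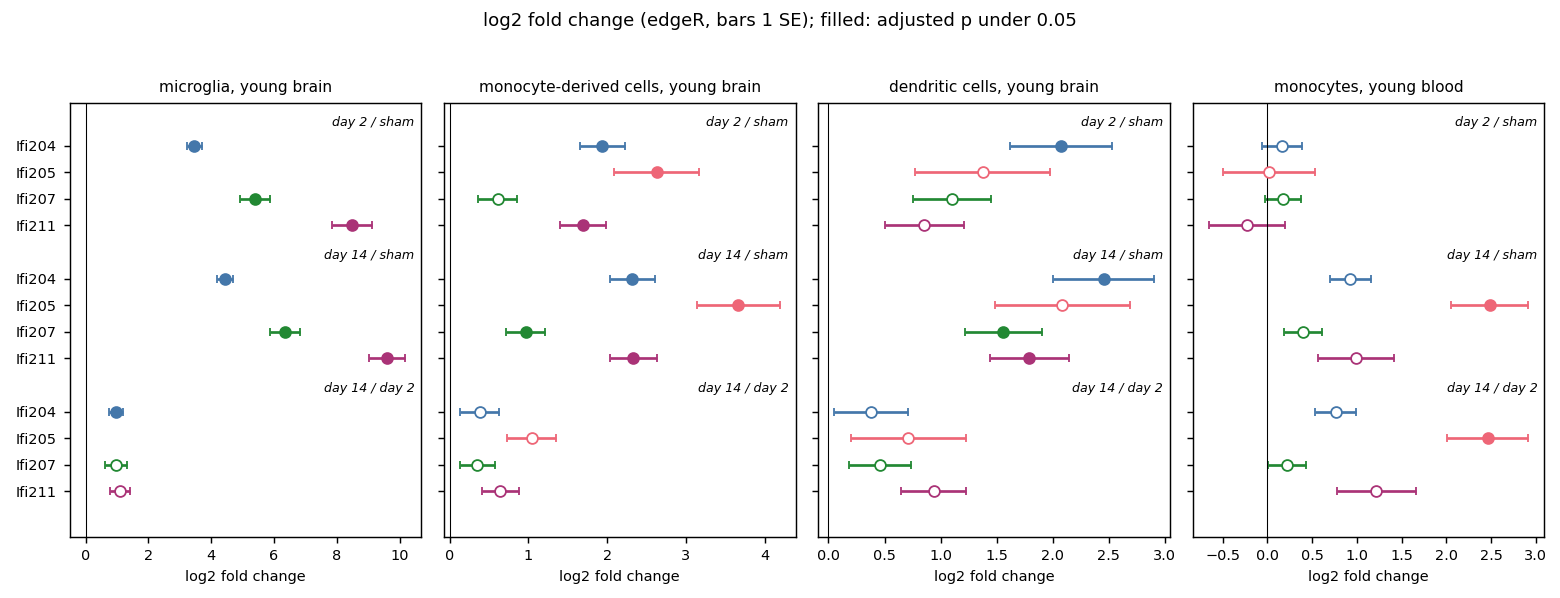
Log2 fold change with 1 standard error for the members tested in microglia (Mg), monocyte-derived cells (MdC) and dendritic cells (DC) of young brain and monocytes (Mo) of blood, for stroke day 2 against sham, stroke day 14 against sham and stroke day 14 against stroke day 2. The standard error is derived from the change and its F statistic. Filled points have an edgeR adjusted p under 0.05. For Ifi204, Ifi207 and Ifi211 microglia carry the largest changes against sham, and the estimates for Ifi211 in microglia have no counts behind the sham group and no meaning as a size. Those for Ifi207 in microglia rest on near-zero sham values, with 0 of 4 sham libraries at the filter's level. With positive values rounded up, the ratios of Ifi207 to sham were 12.8 at day 2 and 19.3 at day 14.

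Dendritic cells, which present antigen to T cells, had the highest Ifi205 of the brain, yet Ifi205 did not pass the test in them. At day 2, 1 of the 4 members was called higher by edgeR, against a background of 0.939% of 4365 genes. At day 14, 3 of the 4 were called higher, against 1.37%. Between the stroke times 0 of 4 were called higher, against 0.435%. The 4 sham libraries together held few counts, 11 of Ifi204, 35 of Ifi205, 20 of Ifi207 and 22 of Ifi211.

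Ifi205 in young brain dendritic cells was 99.3, 251, 0 and 332 CPM in sham, 292, 220, 715 and 495 CPM at day 2 and 339, 592, 1046 and 887 CPM at day 14. Sham libraries ranged widely and overlapped day 2, and all day 14 libraries were above sham. The log2 fold change was 1.38 (edgeR adjusted p = 0.278) at day 2 and 2.09 (SE 0.60, adjusted p = 0.104) at day 14.

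Ifi204 in the same cells was 55.1, 78.2, 64.8 and 0 CPM in sham, 285, 122, 243 and 203 CPM at day 2 and 317, 276, 243 and 266 CPM at day 14. Neither stroke group overlapped sham, as for 6.21% of all genes at day 2 and 5.66% at day 14. It rose by 2.08 (log2, SE 0.45, edgeR adjusted p = 0.0416) at day 2, a call that 7 of the 8 single libraries ended when left out (1.70 to 2.41), and by 2.46 (SE 0.45, adjusted p = 0.0159) at day 14. The day 2 call also missed without normalisation factors (2.00, adjusted p = 0.0581), with only these groups in the fit (1.93, 0.0583), without the highest doublet scores (1.90, 0.0774), with cells of at least 800 counts (1.65, 0.309) and with the barcode term (2.06, 0.491). Ifi211 was 128, 93.5, 131 and 79.1 CPM in sham, 208, 104, 230 and 195 CPM at day 2 and 188, 365, 418 and 449 CPM at day 14. It rose by 1.79 (SE 0.35, adjusted p = 0.0193) at day 14 with no overlap, and the day 2 change was 0.86 (adjusted p = 0.257). Ifi207 was 42.2, 105, 157 and 150 CPM in sham, 254, 163, 212 and 222 CPM at day 2 and 309, 271, 236 and 352 CPM at day 14. Its stroke libraries were all above sham, with 1.10 (adjusted p = 0.126) at day 2 and 1.56 (SE 0.34, adjusted p = 0.0333) at day 14. The day 14 call was lost for Ifi204 without sham replicate 1 (2.40) or 2 (2.78), for Ifi211 without any 1 sham library or day 14 replicate 2 (1.64 to 1.87), and for Ifi207 without any of 7 libraries (1.14 to 1.75). It was lost for Ifi204, Ifi207 and Ifi211 with the barcode term (2.44, 2.93 and 1.63) and with cells of at least 800 counts only (2.06, 2.33 and 1.61). That of Ifi207 was also lost without normalisation factors (1.46) and with only these groups in the fit (1.44). Without the factors the share of called genes that were higher at day 14 went from 74.1 to 63.3%.

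Border-associated macrophages, which line the vessels and meninges, had high levels that no test moved. In them 0 of 3 tested members were called in any comparison by edgeR, against a background of 1.6% higher of 1313 genes at day 2, 0.0762% at day 14 and 0.305% between the stroke times. Ifi207 was 503, 624, 852 and 730 CPM in sham, 459, 549, 547 and 498 CPM at day 2 and 708, 1015 (20 cells), 586 and 893 CPM at day 14. The day 14 libraries were all above the day 2 libraries, as for 2.67% of genes (log2 0.64, SE 0.31, edgeR adjusted p = 0.309), and sham overlapped both (-0.46 at day 2 and 0.17 at day 14). Ifi204 differed by -0.22 at day 2 against sham, 0.33 at day 14 against sham and 0.55 between the stroke times (adjusted p 0.674, 0.938 and 0.392), with overlap in each. Ifi211 had 142 ± 26.0, 110 ± 81.2 and 190 ± 104 CPM (-0.17, 0.08 and 0.26), and Ifi205, at 2.78, 9.23 and 31.3 CPM, was not tested.

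Granulocytes of the brain, mostly neutrophils, had Ifi204 at 49.1, 116, 64.2 and 25.6 CPM in sham, 114, 245, 54.7 and 14.5 CPM at day 2 and 282, 205, 394 and 450 CPM at day 14. Day 2 overlapped both other groups, and day 14 did not overlap sham, as for 19.9% of 994 genes. From sham to day 14 edgeR called Ifi204 higher (1.93, log2, SE 0.61, adjusted p = 0.0237), beside 13% of 994 genes called higher. It was at the filter's level in 0 of 4 sham, 1 of 4 day 2 and 4 of 4 day 14 libraries, so it entered the test through the day 14 libraries and could only be called higher there. Without normalisation factors the median of all genes at day 14 moved from -0.06 to 0.31 and the share of called genes that were higher from 49.8 to 71.7%. Ifi204 was not called at day 2 against sham (-0.16, adjusted p = 0.924, background 5.53% higher), where the fitted change was below 0 although the mean of libraries was higher at day 2 (107 CPM) than in sham (63.6 CPM), or between the stroke times (2.09, adjusted p = 0.0962, background 1.81% higher), and the other 3 members were not tested. This call was lost with no filter on low counts (1.74, adjusted p = 0.104), with the barcode term (2.32, adjusted p = 0.238) and without sham replicate 3 or 4 or day 14 replicate 3 or 4. No member was tested in T, B or NK cells of the brain, where group means of Ifi204 ran from 0 to 87.0 CPM, the highest in the 2 day 2 libraries with enough B cells (0 and 174 CPM).

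In blood, monocytes, the source of monocyte-derived cells, did not change detectably at day 2, and at day 14 edgeR called Ifi205 higher. These levels are sums over subtypes, and the part of the subtype mix in the change was not tested. The day 14 libraries of all 4 members lay above every sham library, as did those of 3.64% of 6706 genes. At day 2 against sham 0 of 4 members and 0 of 6706 genes were called by edgeR in monocytes (188 genes had an unadjusted p under 0.05). At day 14 against sham 1 of 4 was called, against a background of 0.104% higher, and at day 14 against day 2 also 1 of 4, against 0.0895%.

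Ifi205 in blood monocytes was 3.17, 17.6, 23.2 and 26.9 CPM in sham, 7.15, 27.5, 21.4 and 19.8 CPM at day 2 and 98.4, 104 and 85.1 CPM at day 14. The first pair of groups overlapped and day 14 stood apart from both, as for 5.49% of all genes against day 2. The difference was 2.49 (log2, SE 0.43, edgeR adjusted p = 0.0185) against sham and 2.47 (SE 0.45, adjusted p = 0.0125) against day 2. The call against sham was lost without sham replicate 2 (2.48, adjusted p = 0.0539), day 14 replicate 1 (2.45, 0.0849) or day 14 replicate 2 (2.39, 0.150). The call against day 2 was lost without day 2 replicate 1 (2.13, 0.094), day 14 replicate 1 (2.43, 0.0672) or day 14 replicate 2 (2.40, 0.0946).

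The other 3 members were also highest at day 14 in blood monocytes without passing the test. Ifi204 was 223, 201, 335 and 353 CPM in sham, 300.2, 362, 312 and 283 CPM at day 2 and 564, 537 and 504 CPM at day 14. Ifi211 was 40.8, 62.5, 214 and 197 CPM, then 83.5, 91.2, 134 and 120 CPM, then 271, 269 and 237 CPM. For each, the day 14 libraries were above all others, with log2 changes against sham of 0.93 (edgeR adjusted p = 0.166) and 0.99 (adjusted p = 0.822). Ifi207 was 202, 229, 252 and 313 CPM, then 278, 364, 224 and 274 CPM, then 329, 314 and 353 CPM, with 0.40 (adjusted p = 0.987) from sham to day 14. At day 14 against sham, Ifi204 was called by DESeq2 (0.91, adjusted p = 0.0481) and by edgeR without a filter on low counts (0.96, adjusted p = 0.0117), as was Ifi211 without the filter (1.03, adjusted p = 0.0130).

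Blood neutrophils had Ifi204 at 48.3, 69.6, 113 and 138 CPM in sham, 47.9, 48.5, 68.5 and 54.6 CPM at day 2 and 173, 165 and 180 CPM at day 14. Day 14 was above both other groups, as for 18.9% of 4944 genes against sham and 16.7% against day 2. The rise from day 2 to day 14 was 1.36 (log2, SE 0.28, edgeR adjusted p = 0.0130, background 1.4% of 4944 genes higher), and it was lost without day 14 replicate 1 (1.35, adjusted p = 0.0502). Without normalisation factors it was 1.69 (adjusted p = 0.00672), while the median of all genes moved from 0.03 to 0.35 and the share of called genes that were higher from 29.6 to 67.2%. Against sham, day 14 differed by 0.65 (adjusted p = 0.197, background 2.18% higher), and by 0.97 (adjusted p = 0.0589, background 5.58% higher) without the factors, when the share of called genes that were higher went from 36.1 to 73.2%. Day 2 differed from sham by -0.70 (adjusted p = 0.997, with 0 genes called and 209 at an unadjusted p under 0.05), and the other members were not tested in neutrophils. In blood dendritic cells 0 of 3 tested members were called at day 14 against sham, against a background of 0.861% of 1626 genes called higher. The fitted changes were 0.997 for Ifi204, 0.69 for Ifi205 and 0.87 for Ifi207 (edgeR adjusted p 0.798, 0.863 and 0.713), and the means went from 77.3 to 167 CPM for Ifi204 and from 129 to 226 CPM for Ifi207. Ifi205 was 73.6 and 112 CPM in sham and 81.4, 192 and 105 CPM at day 14, with overlap. The 3 genes were at the filter's level in 0 of 2 sham libraries. Ifi211 was not tested.

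In aged brain, the microglial rise at day 2 was present for the same 3 genes. All 3 tested members were called higher in aged microglia by edgeR, against a background of 1.98% of 11096 genes. Ifi204 was 58.8 CPM in the male and 48.2 CPM in the female sham library and 480, 351 and 215 CPM at day 2. Ifi207 was 19.8 and 5.34 CPM in sham and 294, 219 and 102 CPM at day 2. Ifi211 was 4.89 and 11.1 CPM in sham and 167, 143 and 16.9 CPM at day 2. Every stroke library lay above both sham libraries for the 3 genes, as it did for 16.6% of all genes tested, and the lowest Ifi211 stroke library lay close to sham. Ifi207 and Ifi211 were at the filter's level in 1 of 2 aged and 0 of 4 young sham libraries and in all 3 aged stroke libraries, so their direction against sham was largely set by the filter. The log2 fold changes were 2.76 (SE 0.38, edgeR adjusted p = 0.00743), 3.81 (SE 0.63, adjusted p = 0.00807) and 4.17 (SE 0.80, adjusted p = 0.0185). With only the aged groups in the fit the adjusted p was 0.0607, 0.0626 and 0.0952. Leaving out either sham library ended all 3 calls: the adjusted p was 0.0567, 0.0579 and 0.0666 without the male one and 0.132, 0.132 and 0.194 without the female one. In these fits the aged sham arm is 1 library, assumed to vary like the other groups. Ifi211 was also lost without the female stroke replicate 1 (3.71, adjusted p = 0.0854). The 9 monocyte markers summed to 1252 and 1263 CPM in the aged sham microglia and to 874 to 1125 CPM at day 2, so they were lower at day 2. In young sham microglia they had summed to at most 404 CPM. Ifi205 was 0.606 and 0 CPM in sham and 18.4 CPM and near 0 in the other day 2 libraries, and was not tested.

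Aged monocyte-derived cells had Ifi204 at 303 and 350 CPM in sham and 1195, 640 and 892 CPM at day 2. Ifi211 was 82.6 and 70.0 CPM in sham, on 5 counts in all, and 665, 328 and 622 CPM at day 2. Ifi207 was 220 and 315 CPM in sham and 622, 456 and 456 CPM at day 2, and Ifi205 was 55.1 and 35.0 CPM and 282, 67.5 and 219 CPM. Every stroke library lay above both sham libraries for the 4 members, as it did for 23.9% of 8167 genes. By edgeR, Ifi211 (3.47, SE 0.57, adjusted p = 0.00426), Ifi204 (2.14, SE 0.44, adjusted p = 0.0168) and Ifi207 (1.61, adjusted p = 0.0363) were called higher, 3 of 4 against a background of 2.47% of 8167 genes, and Ifi205 was not (2.72, adjusted p = 0.119). The median of all genes was 0.44 with normalisation factors and -0.22 without, and the share of called genes that were higher was 89.8% with them and 49% without. Without the male or the female sham library the calls of Ifi204 (2.34 and 2.32) and Ifi211 (3.45 and 3.88) were lost, again with an arm of 1 library. That of Ifi207 was lost without any 1 library (1.37 to 1.97), and those of Ifi204 (1.49, adjusted p = 0.0743) and Ifi207 also without normalisation factors. With only the aged groups in the fit Ifi204 (2.02, adjusted p = 0.0515) and Ifi207 (1.48, adjusted p = 0.0892) missed the threshold. The aged groups mix the sexes unevenly, and with sex as a covariate Ifi207 missed it too (1.59, adjusted p = 0.0581). DESeq2 did not call Ifi207 (1.15, adjusted p = 0.114).

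In aged granulocytes Ifi204 was 94.9 and 0 CPM in sham and 939, 337 and 415 CPM at day 2 (log2 3.27, edgeR adjusted p = 0.0760). Ifi207 was 0 in both sham libraries and 333, 138 and 179 CPM at day 2 (edgeR adjusted p = 0.138). Day 2 stood at 4.54 times a floor of 3 counts over the sham group, which is no lower bound. Neither was called, against a background of 2.0% of 1401 genes called higher. Both were at the filter's level in 0 of 2 aged sham libraries and entered the test through stroke libraries, so a lack of overlap with sham is set by the filter. Among all genes tested in these cells, 25.3% had every stroke library above both sham libraries.

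Whether the change at day 2 differed between ages was tested directly, as the aged change minus the young change. In 9 such tests of members 0 were called by edgeR. Of all genes 0 were called in microglia, monocyte-derived cells and granulocytes, where 643 of 11096, 477 of 8167 and 58 of 1401 had an unadjusted p under 0.05. In microglia the differences were -0.66 (SE 0.45, adjusted p = 0.760) for Ifi204, -1.55 (SE 0.82, adjusted p = 0.739) for Ifi207 and -4.06 (SE 1.48, adjusted p = 0.739) for Ifi211, the last against a young sham group at or near 0. In monocyte-derived cells they were 0.18 for Ifi204, 0.06 for Ifi205, 0.96 for Ifi207 and 1.74 (SE 0.72, adjusted p = 0.821) for Ifi211. In granulocytes they were 3.47 for Ifi204 (SE 1.28, adjusted p = 0.939) and 4.20 for Ifi207 (SE 3.13, adjusted p = 0.984). Age was carried by different libraries with different tables, of which none of the aged ones had barcodes ending in N. The single aged library of day 14 had 204 CPM of Ifi204, 107 CPM of Ifi207, 37.3 CPM of Ifi211 and 0.742 CPM of Ifi205 in microglia. In its monocyte-derived cells these were 641, 574, 382 and 296 CPM.

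The deposited annotation divides each cell type into finer subtypes, which were made from the same cells, so the following is a description without a test. Among monocyte-derived cells, subtype MdC4 had the highest mean of all 4 members. At day 2 it had 1670 ± 232 CPM of Ifi204 (n = 4) against 559 CPM in the next subtype, 942 ± 98.6 CPM of Ifi211, 657 ± 132 CPM of Ifi207 and 468 ± 132 CPM of Ifi205. At day 14 it had 1827 ± 137 CPM of Ifi204, 1074 ± 49.7 CPM of Ifi211, 818 ± 107 CPM of Ifi207 and 687 ± 185 CPM of Ifi205. Its libraries overlapped another subtype for Ifi207 at day 2 and for no other member or time. Within MdC3, which had at least 20 cells in each of the 4 sham libraries, Ifi204 was 201 ± 84.8 CPM in sham, 450 ± 148 CPM at day 2 and 601 ± 135 CPM at day 14. Ifi211 in MdC3 was 109 ± 54.5, 170 ± 75.3 and 286 ± 95.3 CPM, Ifi207 was 248 ± 37.6, 320 ± 57.1 and 368 ± 126 CPM, and Ifi205 was 0, 32.3 ± 16.1 and 60.0 ± 19.4 CPM. The sham and day 2 libraries of MdC3 overlapped for Ifi207 and Ifi211. How the mix of subtypes and the levels within them enter the sum over monocyte-derived cells was not tested.

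Among blood monocytes, Mo4 had the highest mean of all 4 members at both stroke times. At day 14 it had 1418 CPM of Ifi204 (n = 3) against 428 CPM in the next subtype, and 411 CPM of Ifi205 against 38.0 CPM, with no overlap. At day 2 it held 949 CPM of Ifi204 and 198 CPM of Ifi205 in 2 libraries. The 4 subtypes compared in sham were Mo1, Mo2, Mo3 and Mo5, without Mo4. Among them Mo5 had the highest mean of Ifi205, 60.7 CPM with overlap, against 38.0 CPM in Mo5 at day 14. For Ifi204 the highest mean in sham was 284 CPM, in Mo1, and Mo5 had 428 CPM at day 14. How the mix of subtypes and the levels within them enter the sum over blood monocytes was not tested. Among blood neutrophils Neu5 led for Ifi204, at 361 CPM in sham, 234 CPM at day 2 and 807 CPM at day 14. In brain dendritic cells, DC2 and DC6 had the highest means of Ifi205, at 1528 and 790 CPM at day 2 and 1729 and 1910 CPM at day 14, and DC6 led for Ifi204 (882 and 1148 CPM).

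Among young microglia, Mg3 had the highest mean of Ifi204 in each group, 383 ± 79.3 CPM in sham (2 libraries), 638 ± 156 CPM at day 2 (3 libraries) and 345 ± 53.8 CPM at day 14 (4 libraries), when its libraries (from 290.3 CPM) overlapped those of Mg7 (up to 348 CPM). Mg3 numbered 70 cells in those sham libraries and 3415 of the 5170 microglia at day 14. In Mg1, which held 5826 of the 10874 sham microglia and 313 cells in 3 libraries at day 14, Ifi204 was 13.3 ± 2.61 CPM in sham, 35.9 ± 4.70 CPM at day 2 and 59.9 ± 35.6 CPM at day 14. Mg4 had 41.7 CPM of Ifi204 in sham (3 libraries) and 251 ± 126 CPM at day 2. That mean includes replicate 3, with 431 CPM in 56 cells, and without it Mg4 had 191 ± 47.5 CPM (n = 3), while no other subtype had 20 cells in replicate 3. Ifi207 in Mg3 was 60.0, 240 and 156 CPM in the 3 groups, and Ifi211 in Mg3 was near 0, 199 and 73.5 CPM. At day 14 the highest means of both were in Mg5, 192 CPM of Ifi207 and 115 CPM of Ifi211 in 2 libraries, which overlapped other subtypes. The share of cells in Mg3 thus differed between the groups, the mean of Ifi204 in Mg3 was no higher at day 14 than in sham, and the means in Mg1 and Mg4 were higher at day 2 than in sham. How the mix of subtypes and the levels within them enter the sum over microglia was not tested.

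**Figure D5:**
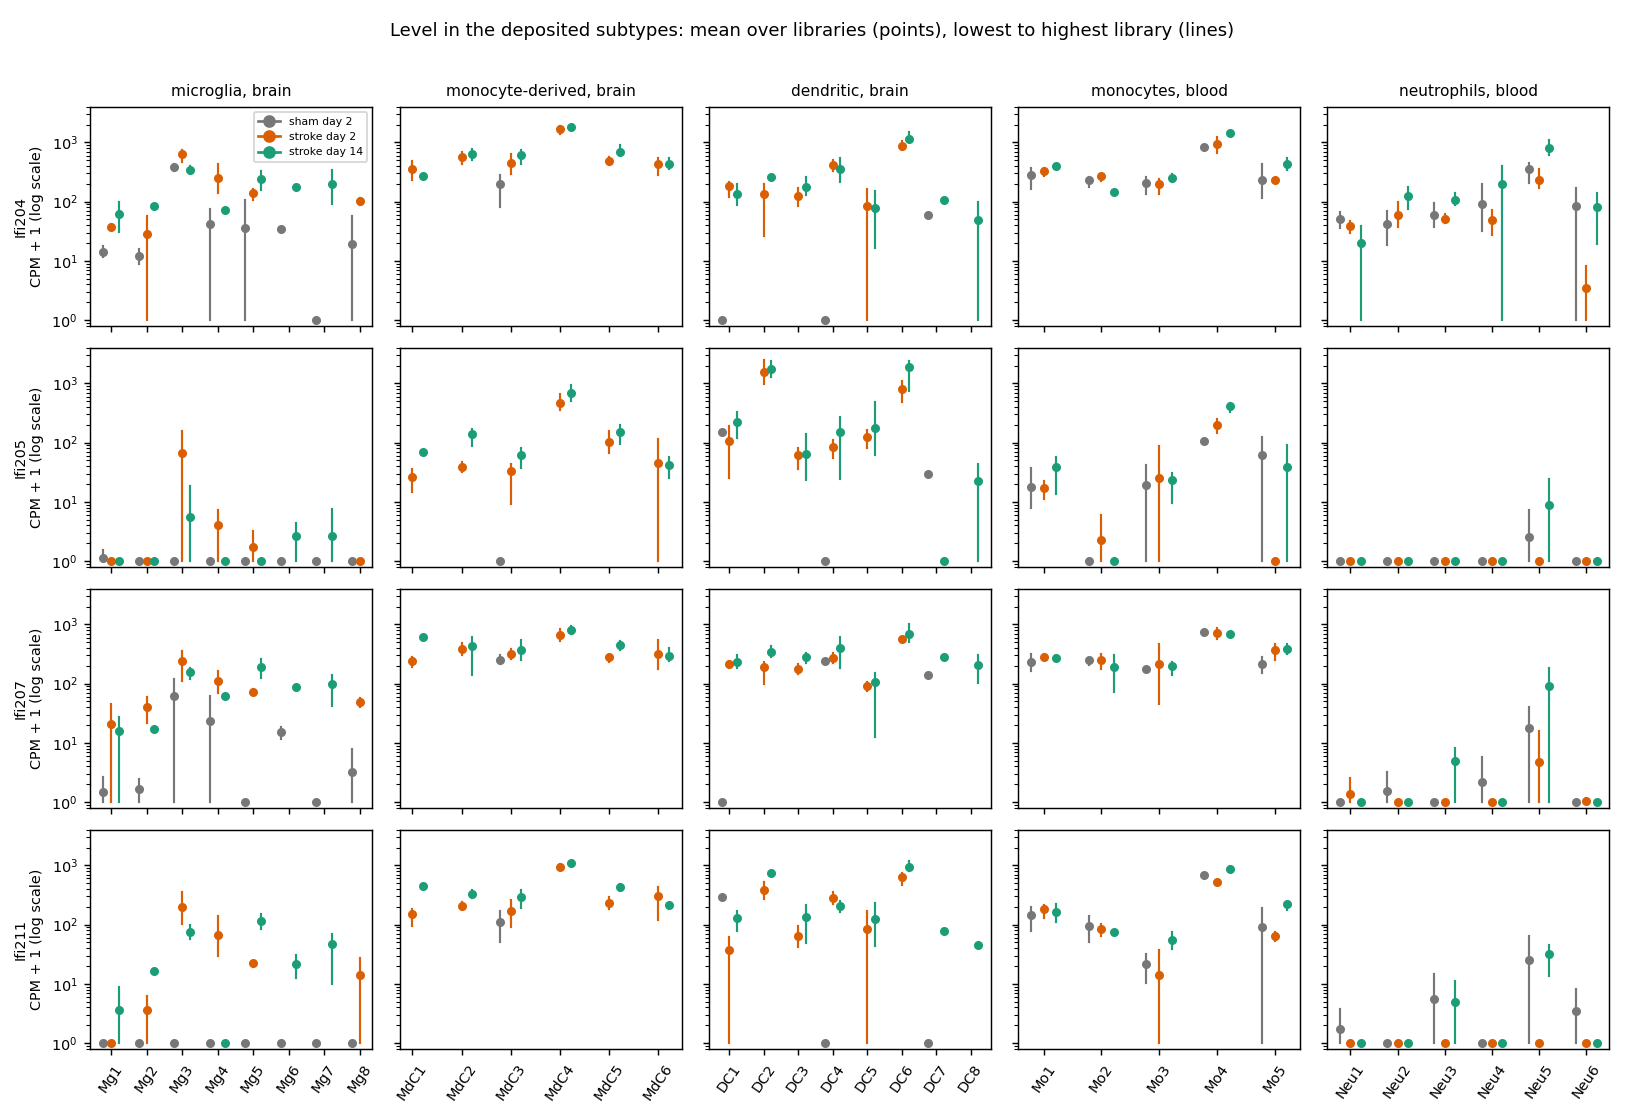
Level of the 4 genes (log axis of CPM + 1) by deposited subtype in microglia, monocyte-derived cells and dendritic cells of young brain and in monocytes and neutrophils of blood, with points at the mean and lines from the lowest to the highest library, by group. MdC4 in brain and Mo4 in blood hold the highest means of their types after stroke, and some subtypes rest on a single library.

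Other genes of the pathway were read from lists of relatives, DNA sensing, interferon signalling and inflammasome genes. Of the other PYHIN genes, 4 were tested in young microglia and 3 of them rose at day 2: Ifi206 (log2 5.38), Ifi213 (3.49) and Ifi209 (2.03), at a list median of 2.76 against -0.05 for all genes, of which 15.7% were called higher. These fold changes rest on few counts in sham, with means of 0.124 CPM for Ifi206 and 0.566 CPM for Ifi213. Both means lie under the filter's cutoff of 7.26 CPM in microglia. Both genes entered the test through stroke libraries and could only be called higher, so the count of 3 is partly set by the filter. Against 15.7% of all genes called lower at day 2, Aim2, the inflammasome-forming DNA sensor, fell by 0.98 (SE 0.30, edgeR adjusted p = 0.0239), from a mean of 310 to 125 CPM, and at day 14 its change was -0.50 (adjusted p = 0.234). At day 14, when 10.6% of all genes were called higher and 4.68% lower, the same 3 relatives rose (7.56, 6.53 and 3.05), at a list median of 4.79 against -0.04. In monocyte-derived cells 2 of 8 were higher at day 2 (Ifi206 2.04, Ifi209 1.64), against 5.66% of all genes, at a median of 0.64 against 0.29 for all genes. At day 14, 5 of 8 were higher, against 4.21% of all genes, led by Ifi206 (3.31), Ifi209 (2.02) and Ifi213 (1.79), at a median of 1.79 against 0.28.

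Of the 12 genes of DNA sensing and its signalling tested in young microglia, 3 were called higher and 4 lower at day 2, beside 15.7% of all genes each way. Zbp1 (6.07, from a sham mean of 0.687 CPM), a sensor of Z-form nucleic acid, Irf7 (4.16), a transcription factor of interferon genes, and Dnase2a (0.63), a lysosomal nuclease, rose. Zbp1 lay under the filter's cutoff in sham, so it could only be called higher. Trim56 (-1.33), Nfkb1 (-1.12), Tbk1 (-1.02), the kinase that acts behind STING, and Tmem173 (-0.71), which encodes STING itself, were lower, and the list median was -0.42. At day 14 Zbp1 (6.89), Irf7 (5.89) and Dnase2a (0.74) were higher, 3 of 12 against 10.6% of all genes, and 0 were lower, at a median of -0.03. Mb21d1, which encodes the DNA sensor cGAS, had 0.00 at day 2 and -0.02 at day 14 and was not called. In monocyte-derived cells, of 13 tested, Irf7 (1.77) rose at day 2 (5.66% of all genes), and Irf7 (2.61) and Zbp1 (1.59) rose at day 14 (4.21%).

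Of the interferon receptor and signalling genes, Usp18 (3.75), a feedback inhibitor of the receptor, and Stat2 (0.78), a transcription factor of the pathway, rose in young microglia at day 2, and Jak1 (-1.24), a receptor kinase, was lower. At day 14 Usp18 (4.86) and Stat2 (1.95) were higher in microglia. Of 12 interferon-stimulated genes, 11 were higher in microglia at day 2 and 12 at day 14 (medians 3.81 and 5.10), against 15.7 and 10.6% of all genes. Rsad2 had 0.484 CPM in sham, 28.2 CPM at day 2 and 77.7 CPM at day 14, Oasl2 had 0.399, 42.6 and 104 CPM, and Ifi27l2a had 14.2, 707 and 1240 CPM. Ifi44 had 0.0685 CPM in sham and 13.1 CPM at day 14. In sham microglia Rsad2, Oasl2 and Ifi44 lay under the filter's cutoff of 7.26 CPM. They entered the test through stroke libraries and could only be called higher, so the counts of 11 and 12 are partly set by the filter. In monocyte-derived cells 9 and 12 were higher (medians 2.52 and 3.32), against 5.66 and 4.21%, led at day 2 by Rsad2 (4.42), Rtp4 (3.46) and Ifit1 (2.80). At day 14 Rsad2 (5.49) and Ifit2 (3.94) were among them, and Ifi44 was at 0 CPM in sham and 31.8 CPM at day 14. With 0 CPM in sham, Ifi44 could only be called higher there too. Usp18 rose by 2.52 at day 2 and 3.13 at day 14 in these cells, and Stat2 by 1.66 at day 14. From day 2 to day 14, beside 3.46% of all genes higher in microglia, called list genes there included Ifi213 (3.04), Ifi206 (2.18) and Ifi209 (1.02), Irf7 (1.73), Irf1 (1.34), Stat2 (1.17), Ifi44 (4.71), Oasl2 (1.89) and Ifit2 (1.77). In monocyte-derived cells they were Ifi206 (1.28), Ifi44 (2.35) and Rsad2 (1.06), beside 0.829% of all genes. In microglia 1 of 8 inflammasome genes rose at day 2, the adaptor Pycard (1.33, and 1.03 at day 14), and Casp1 (-0.99) and Gsdmd (-0.79) were lower, beside 15.7% of all genes called each way. Without day 2 replicate 3, when 14.5% of all microglial genes were called higher and 13% lower, Trim56 (-1.27, edgeR adjusted p = 0.0597) and Casp1 (-0.97, adjusted p = 0.0595) were no longer called, and the other list genes of microglia named here for day 2 kept their calls. Without normalisation factors Dnase2a was not called in microglia (0.46, edgeR adjusted p = 0.121, at day 2 and 0.26, adjusted p = 0.327, at day 14), Aim2 (-0.95), Tmem173 (-0.92) and Tbk1 (adjusted p = 0.0187) were called lower at day 14 beside 27.7% of all genes, and 11 and 12 interferon-stimulated genes were higher. In monocyte-derived cells without the factors, 0 and 2 of the 8 other PYHIN genes (Ifi206 and Ifi209) and 3 and 10 of the 12 interferon-stimulated genes were higher at day 2 and day 14, beside 2.22 and 2.45% of all genes, and Irf7 at day 2 (1.30, adjusted p = 0.110) and Zbp1 at day 14 (1.18, adjusted p = 0.0908) were not called. Of the 10 interferon receptor and signalling genes, 1 in place of 3 was higher in microglia at day 2 without the factors. At most 1 of Usp18 and Stat2 thus kept its call there, beside 12.4% of all genes, and 3 in place of 1 were lower, beside 21.2%. In monocyte-derived cells at day 2, 0 in place of 1 were higher, so Usp18 was not called.

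Beside the aged members, 11 of 11 tested interferon-stimulated genes were higher in aged microglia at day 2, against 1.98% of all genes (median 3.004 against -0.04 for all genes), led by Ifit1 (3.70), Oasl2 (3.53) and Oas1a (3.20), while 0 of 6 other PYHIN genes were called (median 0.54). Zbp1 (3.52), Irf7 (3.43) and Usp18 (2.86) were also higher there. With only the aged groups in the fit, 0 genes in place of 296 were called in aged microglia, so none of these calls held. In aged monocyte-derived cells, beside 2.47% of all genes, 4 of 11 interferon-stimulated genes, led by Rsad2 (4.26), Mx1 (4.21) and Isg15 (3.34), Irf7 of the 13 DNA-sensing genes and the inflammasome genes Nlrp3 (2.73) and Il1b (2.49) of 7 were higher, and 0 of 9 other PYHIN genes were called. In blood monocytes 0 of 6 other PYHIN genes were called in any of the 3 comparisons, at medians of -0.20 for day 2 against sham, 0.83 for day 14 against sham and 1.04 for day 14 against day 2. Of all genes there, 0 were called higher in the first of these comparisons, 0.104% in the second and 0.0895% in the third. Of 11 interferon-stimulated genes, 2 rose at day 14 against sham, Ifit3 (2.73) and Rsad2 (3.22).

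One limit lies in the sequences of the family. Of the 50-base words in the last 500 bases of the annotated transcripts, where Drop-seq reads fall, 77.4% of those of Ifi211 and 39.6% of those of Ifi205 also occur in another gene, each in the other and in Mndal. The share was 1.77% for Ifi204 and 3.54% for Ifi207. How reads that fit several genes were assigned is not given in the sources used here, so Ifi211 and Ifi205 values may include each other's or Mndal's reads.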

How the data were processed

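Drop-seq measured RNA in single cells of 29 libraries. Per the submitters' processing notes the build mm10 and Seurat were used, with no role or version stated, and the aligner and counter are not given in the sources used here. The authors deposited a table per library of expected counts, which are fractional (0.00866 to 4.47% of non-zero values were whole) and were not scaled, and a metadata table with total counts per cell, the percent of mitochondrial reads per cell (library medians 0.13 to 5.33) and the parent cell type and subtype of each cell. Cells and cell types were used as the authors deposited them.

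Counts were summed per library and parent type (at least 20 cells), rounded, and tested with edgeR 4.0.16 (quasi-likelihood test, TMM, filterByExpr, limma 3.58.1, R 4.3.3) over all genes of a table, with Benjamini-Hochberg adjusted p at 0.05. The 3 groups of young brain or blood shared a fit, and the 4 day 2 brain groups shared the fit that compared ages. The SE beside an edgeR change is the size of the change divided by the square root of its F statistic. It is thus derived from the test and is not a separate estimate of spread. In all, 54 comparisons were fitted, 28 had a member tested, and 28 of 81 member tests passed. The samples are libraries of pooled mice that the labels number as replicates, so p-values measure the spread between pools. Each member was named in every comparison, and of each list the called genes with the highest and lowest fold change in microglia and monocyte-derived cells, up to 3 each way, with Tmem173, Mb21d1 and, in blood monocytes, Ifit3 and Rsad2 added after their values were seen. Replicate numbers were taken to pair libraries where the deviations of all same-numbered pairs correlated over 0.1, which held between the stroke times in monocyte-derived and endothelial cells (all 4 pairs), and not in microglia (3 of 4 pairs) or between sham and stroke in any type compared (0 to 2 of 4 pairs in brain, at most 3 of 4 in blood). The members and lists were chosen with earlier results of these data known. No list was tested as a set, and 1 gene of the interferon signalling list is not reported here. Alternatives were DESeq2 1.42.0, no TMM, no filter, counts rounded up per cell, a replicate block, only the compared groups, cells of at least 800 counts, at least 50 cells, a sex covariate and each library left out. Chosen after seeing the data were a term for barcodes ending in N and leaving out the 6% highest Scrublet doublet scores, since Scrublet's own threshold marked at most 0.263% of cells in a library and the deposited cells were otherwise kept. Promoters came from RefSeq on GRCm38.p6 and gene positions and transcripts from GENCODE M21.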

Additional observations from a re-analysis of the deposited data

Results flagged for a closer look

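In 55 groups of 4 libraries the highest or lowest library was compared with the rest, and 3 groups had a library set apart by Dixon's criterion, which chance alone flags in about 1 of 20 groups. Ifi204 in T cells of young sham brain was 102 CPM in 1 library and 0 in the other 3. Ifi207 in monocyte-derived cells of young brain at day 14 was 359 CPM in replicate 3 against 488 to 503 CPM in the other libraries. Ifi211 in microglia of young brain at day 2 was 125 CPM in replicate 3, the library with 58 microglia, against 26.9 to 33.1 CPM in the other libraries.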

How the results depend on the processing

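For 152 results, 914 alternatives were computed: 782 kept the direction and the side of the threshold, 101 lost a call, 14 gained one, 9 changed sign and 8 moved a level by more than the spread. Both rises of Ifi204 in young microglia against sham kept their calls under all alternatives run. Genes called without TMM differed by more than 1.5 times in young microglia (1546 to 3479 at day 14 against sham, 702 to 1123 between the stroke times), young monocyte-derived cells at day 2 (542 to 357), aged monocyte-derived cells (225 to 104) and aged granulocytes (38 to 60). Over all alternatives they ran from 599 to 3866 at day 2 and 263 to 3479 at day 14 in microglia, and from 33 to 677 (542 as reported) and 51 to 518 (416 as reported) in monocyte-derived cells, the lowest with the barcode term each time. Without TMM the share of called genes that were higher also moved in young granulocytes at day 2 (66.3 to 78.2%) and between the stroke times (42.9 to 63.8%), in aged granulocytes (73.7 to 85%) and in blood monocytes at day 14 against day 2 (16.7 to 27.9%). In young monocyte-derived cells the barcode term gave 1.58 for Ifi204, 2.27 for Ifi205 and 1.94 for Ifi211 at day 2, and 1.96 for Ifi204, 3.31 for Ifi205 and 0.71 for Ifi207 at day 14, none of them called. Cells of at least 800 counts ended the calls of Ifi205 (2.70) and Ifi211 (1.78) at day 2 and of Ifi205 (3.64) and Ifi207 (0.89) at day 14. Ifi207 at day 14 also missed without TMM (0.55), without a filter (1.12), with the replicate block (0.98), with only the compared groups (0.78), without the highest doublet scores (0.94), with at least 50 cells (0.92) and with each library left out (0.86 to 1.10).

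Between day 2 and day 14, calls were gained in monocyte-derived cells for Ifi205 with DESeq2 (1.11) and the replicate block (1.08) and for Ifi211 with DESeq2 (0.71), and in microglia for Ifi207 with DESeq2 (1.05) and for Ifi211 with counts rounded up (1.22), cells of at least 800 counts (1.39) and 2 of the 8 libraries left out, day 2 replicate 3 (1.23) and day 14 replicate 2 (1.26). With each of the 8 left out it ran from 0.96 to 1.26, with adjusted p up to 0.250. The microglial step of Ifi204 was lost without TMM (0.64) and with only the compared groups (0.86), and ran from 0.78 to 1.11 with libraries left out. In monocyte-derived cells the replicate block also ended the call of Ifi207 at day 14 against sham. Between the stroke times there it moved the genes called from 145 to 469 of 8080.

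In blood monocytes at day 2 against sham, Ifi205 (0.02) turned to -0.0096 without TMM, -0.014 with counts rounded up and -0.0088 with only the compared groups, and ran from -0.40 to 0.34 with libraries left out (below 0 in 4 of them: -0.40, -0.06, -0.10 and -0.16). Ifi211 there (-0.23) ran from -0.55 to 0.16, above 0 without sham replicate 3 (0.16) or 4 (0.06). At day 14 against sham Ifi204 was called by DESeq2 (0.91) and without a filter (0.96), Ifi211 without a filter (1.03), and Ifi205 ran from 2.06 to 2.79 with libraries left out. At day 14 against day 2 Ifi204 was called with only the compared groups (0.76), Ifi211 without a filter (1.26) and with only the compared groups (1.21), and Ifi205 ran from 2.13 to 2.65. Neutrophil Ifi204 ran from 1.26 to 1.43. In aged microglia, with only the compared groups, Ifi204 (2.71), Ifi207 (3.76) and Ifi211 (4.12) missed the threshold, and with libraries left out they ran from 2.44 to 3.01, 3.40 to 5.29 and 3.46 to 4.61 (calls ended without either sham library at 2.60 and 2.98 for Ifi204, 3.40 and 5.29 for Ifi207 and 4.58 and 3.46 for Ifi211, and without the female stroke replicate 1 at 3.71 for Ifi211). Where an alternative leaves fewer samples or genes, that is its own construction, and otherwise the cause was not tested. Scrublet's own threshold and a technical batch named in the metadata were not run, the first because it marked too few cells and the second because no batch is named. Few counts stand behind Ifi205 in microglia (0.47 in sham, 7.78 at day 2 and 27.7 at day 14) and in sham monocyte-derived cells (4.96). The same holds, in rounded counts, for sham dendritic cells of young brain (11 of Ifi204, 35 of Ifi205, 20 of Ifi207 and 22 of Ifi211). Aged sham monocyte-derived cells held 3 of Ifi205 and 5 of Ifi211, and young brain granulocytes 22 of Ifi204 in sham and 11 at day 2.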

Other observations

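Genes with levels like those of the members were named over 102 sums of libraries and cell types (11 types, 6260 genes), by the Pearson correlation of log2(CPM + 1). These correlations are a description, since the points share libraries and cell types. For Ifi204 the closest were Slc15a3 (0.80), Clec7a (0.79), Lilrb4a (0.78), Mpeg1 (0.77) and Cd68 (0.76), genes known from phagocytes. Slc15a3 encodes a lysosomal peptide and histidine transporter and Clec7a the beta-glucan receptor Dectin-1. For Ifi205 they were Gpr141 (0.74), Cd209a (0.72), Tnip3 (0.69), Flt3 (0.68) and Ms4a4c (0.66), of which Cd209a and Flt3 are known from dendritic cells. For Ifi207 they were Clec4a3 (0.84), Cxcl16 (0.82), Ccl9 (0.81), Rab7b (0.80) and Pid1 (0.79). For Ifi211 they were Rab7b (0.81), Ms4a6c (0.78), Cxcl16 (0.77), Ccl9 (0.76) and Pid1 (0.76), so that Rab7b, Cxcl16, Ccl9 and Pid1 were on both lists. Among the members themselves the correlation ran from 0.48 for Ifi204 with Ifi205 to 0.78 for Ifi207 with Ifi211. With 10 in place of 1 added before the log, 3 of the 5 genes named for Ifi204 were the same.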
